A study of Mus musculus with 23 samples.

Results

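The E2f and Dp transcription factors comprised 10 genes, E2f1 to E2f8 with Tfdp1 and Tfdp2, of 32793 gene rows in the deposited tables. They were chosen by their gene symbols, and the family was singled out because E2f1 did not follow the other cell cycle genes in the KO-labelled libraries. The values of E2f1 between the genotypes are therefore a description, with no test. All 10 genes were among the 14187 that passed the filter on low counts.

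RNA sequencing was performed on C2C12, a mouse myoblast line that divides in serum-rich medium and fuses into myotubes once serum is lowered. Control cells (here WT) and cells of genotype Runx1KO were sampled while growing in 20% fetal bovine serum (day 0) or after the switch to 2% horse serum. The titles count days 1, 3 and 6 after the switch, while the series text puts the last time point at 5 days, and the titles are followed here. The 8 groups held 3 libraries each, except WT on day 0 with 2. The labels name no clone for the Runx1KO cells and do not say whether replicates were separate cultures, so p-values measure only the spread between these libraries, which may be technical.

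E2f proteins bind DNA at genes of S phase entry and mitosis, in most cases as a dimer with a Dp protein (encoded by Tfdp1 or Tfdp2). E2f1, E2f2 and E2f3 are known as activators that Rb holds inactive until cyclin-dependent kinases phosphorylate it. E2f4 and E2f5 work mainly as repressors with the pocket proteins Rbl1 and Rbl2, E2f6 represses through polycomb-type complexes, and E2f7 and E2f8 bind without a Dp partner and repress the same cell cycle genes. In muscle cells, leaving the cell cycle goes with Rb activity and repression of E2f target genes.

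Runx1 mRNA was read beside the genotype labels, and it was not lower in the KO-labelled libraries. It stood at 83.9 to 165 CPM (counts scaled to library size) in the 11 WT libraries and at 117 to 320 CPM in the 12 labelled KO. Each day the KO-labelled libraries were higher. The log2 fold changes were 0.51, 0.35, 0.54 and 1.02 on days 0, 1, 3 and 6. The labels do not give the edited part of the gene, so the mRNA level cannot check them, and directions refer to the labels alone. Library totals ran from 22197606 to 23684077 estimated counts. Replicate 2 of the day 1 group labelled KO stood apart from its replicates, with a chi-square per degree of freedom of 62.4 and 61.9 against them, where the other pairs of replicates gave 3.13 to 28.1. Summed myoblast and myotube markers (8 genes) ran from 1474 to 3579 CPM in WT and from 1822 to 12472 CPM in the KO-labelled libraries. Between the genotypes 1, 5, 6 and 5 of the 8 were higher in the KO-labelled libraries on days 0, 1, 3 and 6, and 1, 2 and 2 were lower on days 0, 1 and 6, as called by edgeR. Of all tested genes, 17.5, 42.2, 43.2 and 42.9% differed on days 0, 1, 3 and 6, in either direction. Genes of differentiated muscle were higher on days 1, 3 and 6, by 2.81, 2.09 and 4.13 on the log2 scale for Ckm, 2.76, 0.98 and 2.74 for Acta1, 1.59, 1.55 and 2.61 for Myog and 1.54, 0.76 and 1.55 for Myh3. Myf5, a factor of undifferentiated muscle cells, was lower on days 0, 1 and 6 (-1.43, -0.89 and -0.34), and Pax7, another, on days 1 and 6 (-0.52 and -0.73). Des, a muscle filament gene, was higher by 0.68 on day 0. Marker shifts thus stand beside the genotype differences of the members on every day, and their part in them was not tested. Summed markers of macrophages, endothelium and epithelium (4 genes each) reached at most 12.2, 1.25 and 11.9 CPM in any library. Among them Krt14 was lower in the KO-labelled libraries on days 0, 1, 3 and 6 (-1.79, -2.10, -2.64 and -2.28). Csf1r was lower on days 1, 3 and 6 (-1.79, -2.98 and -2.04). On day 6 Cd68 (1.68) and Cdh1 (3.36, at most 0.83 CPM) were higher. The 4 adipocyte markers had at most 1 count in any library. The part of other cell types in the results was not tested.

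The 10 genes lie on 9 mouse chromosomes in the GRCm38.p6 annotation. E2f1 lies at chr2:154559400-154569892 (- strand), E2f2 at chr4:136172274-136196057 (+), E2f3 at chr13:29906575-29986064 (-), E2f4 at chr8:105297663-105305370 (+) and E2f5 at chr3:14578602-14606309 (+). E2f6 lies at chr12:16810909-16826752 (+), E2f7 at chr10:110745439-110787384 (+), E2f8 at chr7:48866429-48882073 (-), Tfdp1 at chr8:13338725-13378448 (+) and Tfdp2 at chr9:96196246-96323646 (+). Exons of 3 members overlap exons of a gene on the other strand, E2f5 with 1810022K09Rik, E2f7 with the antisense gene 1700020G17Rik and E2f8 with Gm2788. The use of strand in counting is not given in the sources used here, so reads of the overlapping parts cannot be told apart.

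E2f genes are known to be E2f targets themselves, so the start regions of the members were searched for E2f words. RefSeq promoter windows (GRCm38.p6, 250 bases before to 50 after a listed start, 12 windows) matched 8 of the 10 genes, and E2f4 and E2f5 had no entry. One of the words TTTCCCGC, TTTGGCGC, TTTCGCGC and TTTGCCGC, on either strand, lay in 5 of the 12 windows, which belong to 4 of the 8 genes, against 2.26% of the 32851 windows of this length in the table. The Tfdp1 windows overlap and hold the same word, at chr8:13338708-13338715, so it is counted in both. The listed starts of E2f1 and E2f8 lie 465 and 476 bases inside the gene and those of Tfdp2 62459 and 63002 bases inside it, so the sequence before the first base of these 3 genes was not searched. These 4 genes carry the family's own recognition word near their start, which is why they are shown, and the stretch around each word is given 5′ to 3′ on the gene's strand with the word in capitals. The stretches are chr4:136172294-136172323 (+) for E2f2, chr13:29986065-29986124 (-) for E2f3, chr10:110745209-110745288 (+) for E2f7 and chr8:13338661-13338724 (+) for Tfdp1.
E2f2: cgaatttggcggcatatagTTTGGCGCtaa
E2f3: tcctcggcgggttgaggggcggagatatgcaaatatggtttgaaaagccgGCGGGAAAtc
E2f7: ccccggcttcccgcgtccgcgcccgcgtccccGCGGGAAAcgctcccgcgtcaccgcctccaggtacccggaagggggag
Tfdp1: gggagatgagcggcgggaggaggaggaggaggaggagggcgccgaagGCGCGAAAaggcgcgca

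The word lay 39 bases inside the gene in E2f2, and 10, 198 and 17 bases before the gene's first base in E2f3, E2f7 and Tfdp1. The Runx word TGTGGT lay in the window of 1 of the 8 genes, E2f6 (92 bases before its start), against 16.8% of all windows. The ETS word CCGGAAGT lay in none of the 8, against 3.89% of all windows. These matches describe the letters of the windows only.

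The members differed widely in level. On the scale of TPM, an abundance corrected for transcript length, Tfdp1 was the most abundant in WT on day 0 at 173 ± 7.25 TPM (SD, n = 2), followed by E2f4 at 98.1 ± 4.44 TPM. E2f8 (44.7 and 46.3 TPM) and E2f1 (41.5 and 42.4 TPM) came next, and E2f6, E2f5 and E2f7 stood at 24.1, 21.1 and 17.9 TPM. E2f3 (13.1 and 14.99 TPM) and E2f2 (12.2 and 14.4 TPM) overlapped, and Tfdp2 was lowest at 7.01 and 9.86 TPM. By day 6 the order differed between the genotypes. In WT, E2f1 was the most abundant E2f after E2f4, at 43.1 ± 3.50 TPM (SD, n = 3) against 73.6 ± 1.72 TPM. In the KO-labelled libraries, E2f6 (34.7 to 38.9 TPM), E2f8 (35.6 to 36.9 TPM) and E2f2 (25.3 to 27.1 TPM) all stood above E2f1 (21.8 to 24.4 TPM). E2f7 was the lowest member on day 6 in both genotypes, at 5.23 ± 1.37 TPM in WT and 6.23 ± 0.61 TPM in the KO-labelled libraries.

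**Figure D1:**
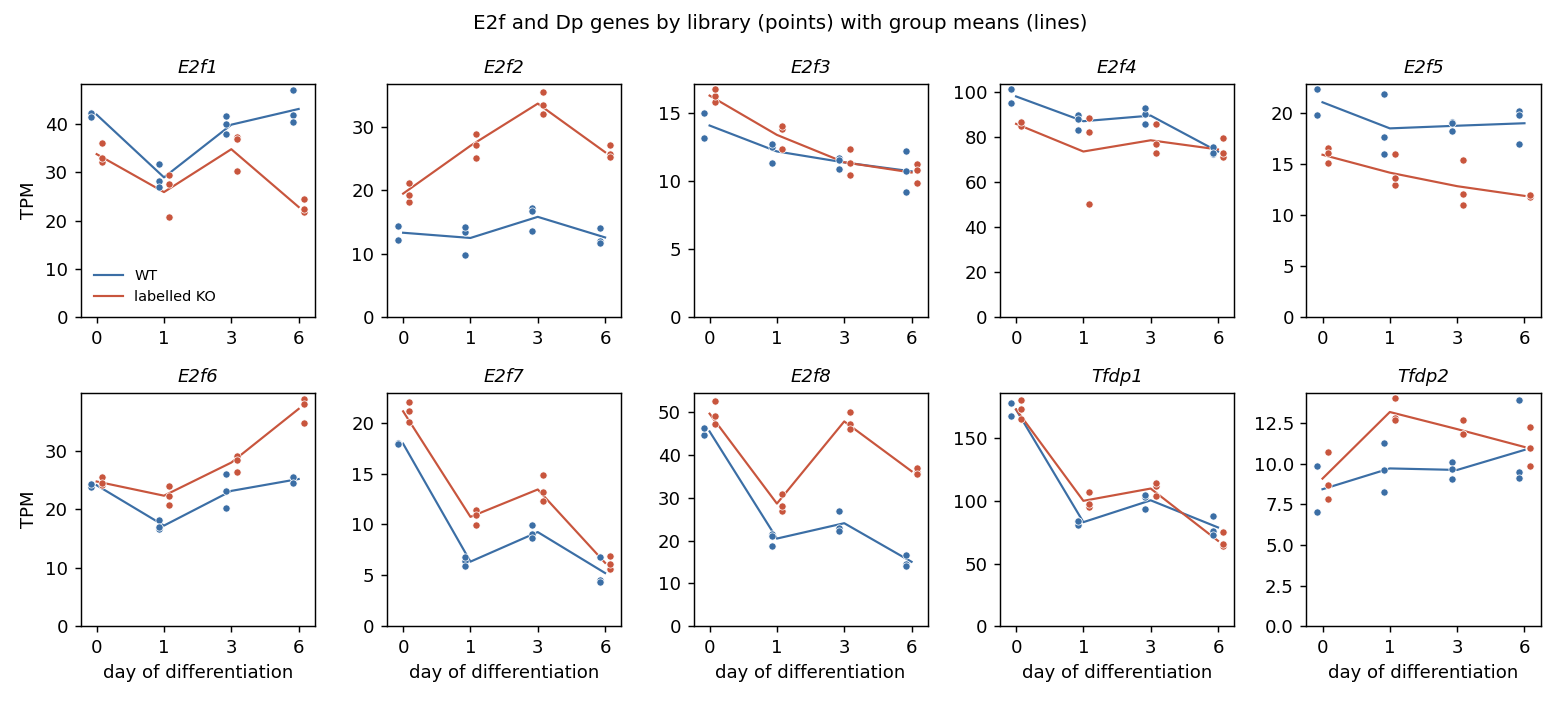
TPM of each E2f and Dp gene (vertical axes, from 0, 1 scale per gene) by day of differentiation, with 1 point per library and lines through the group means, for WT (blue) and KO-labelled libraries (red). E2f2 and E2f8 of the KO-labelled libraries lie above WT on every day, and E2f1 of the day 6 KO-labelled libraries (21.8 to 24.4 TPM) lies below WT (40.4 to 47.1 TPM).

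E2f1, which drives S phase genes and is also known for inducing apoptosis genes, is the member that the family was chosen on. Its levels on day 0 were 42.4 and 41.5 TPM in WT and 36.2, 32.2 and 32.9 TPM in the KO-labelled libraries. On day 1 they were 28.2, 31.8 and 26.9 TPM against 29.4, 20.7 and 27.6 TPM. On day 3 they were 37.9, 39.98 and 41.7 TPM against 30.2, 37.3 and 36.9 TPM. On day 6 they were 42.0, 40.4 and 47.1 TPM against 24.4, 21.8 and 22.3 TPM. The groups did not overlap on days 0, 3 and 6 on the TPM scale, with WT higher, and overlapped on day 1. The fitted log2 fold changes between KO-labelled libraries and WT, on scaled counts, were -0.26, -0.11, -0.04 and -0.79 on days 0, 1, 3 and 6. On days 1 and 3 the groups overlapped on the scale of CPM. The day 1 value was 0.08 without replicate 2 of the KO-labelled libraries, the library that stood apart (20.7 TPM), and the day 3 value was 0.05 without replicate 1 of that group (30.2 TPM). The day 6 value ranged from -0.80 to -0.77 when a library was left out. On log2(TPM + 1) and log2(TPM + 0.1) it was -0.89 and -0.91, where the median of all genes shifted from 0.0037 to -0.097 and -0.12. On day 3 that median shifted from 0.040 to -0.084 and -0.11, so the TPM levels of E2f1 are read beside it.

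Over time, E2f1 moved down and up again in WT. In edgeR's quasi-likelihood fit, with p-values adjusted by Benjamini-Hochberg over all tested genes, it fell by 0.67 on the log2 scale from day 0 to day 1 (SE 0.12, adjusted p = 6.31e-05). It then rose by 0.42 from day 1 to day 3 (adjusted p = 0.00870). WT on days 3 and 6 was not distinguished from day 0, with log2 fold changes of -0.25 (adjusted p = 0.0837) and -0.15 (adjusted p = 0.284). The day 3 difference passed with no filter on low counts (-0.28) and in a fit of only the groups compared (-0.24). The WT step from day 3 to day 6 was 0.10 (adjusted p = 0.665). The family was chosen on the course of E2f1 in the KO-labelled libraries, so its changes there, and their difference from WT, are given with no test. Its WT values enter that difference, so the WT tests above are not independent of the choice. The fitted log2 changes in KO-labelled libraries were -0.53 from day 0 to day 1, 0.49 from day 1 to day 3 and -0.65 from day 3 to day 6. Against day 0, day 3 stood at -0.04 and day 6 at -0.68. The differences in change since day 0 were 0.14, 0.21 and -0.53 on days 1, 3 and 6.

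Across the other 9 members, most genotype differences were increases in the KO-labelled libraries. On day 0, 3 of the 9 genes were higher (E2f2, E2f3 and Tfdp2), where 17.5% of all tested genes differed at an adjusted p under 0.05. On day 1, 7 were higher and 1, E2f5, was lower (42.2% of all genes differed). The same counts held on day 3, with 7 higher and 1 lower (43.2% of all genes). On day 6, 5 were higher and 1 lower (42.9% of all genes). The median log2 fold change of the 9 genes was 0.19, 0.42, 0.43 and 0.23 on days 0, 1, 3 and 6, beside -0.001, 0.029, 0.040 and 0.0037 for all genes tested. E2f4 passed the test on no day. The day 0 count was 2 without replicate 1 or 3 of the KO-labelled libraries or without WT replicate 1, and 1 without WT replicate 2 or on either TPM scale (14.6 and 16.2% of all genes). It was 5 with only the groups compared (25.1% of all genes). The day 3 count of 8 was 5 on either TPM scale (40.8 and 40.5% of all genes).

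**Figure D2:**
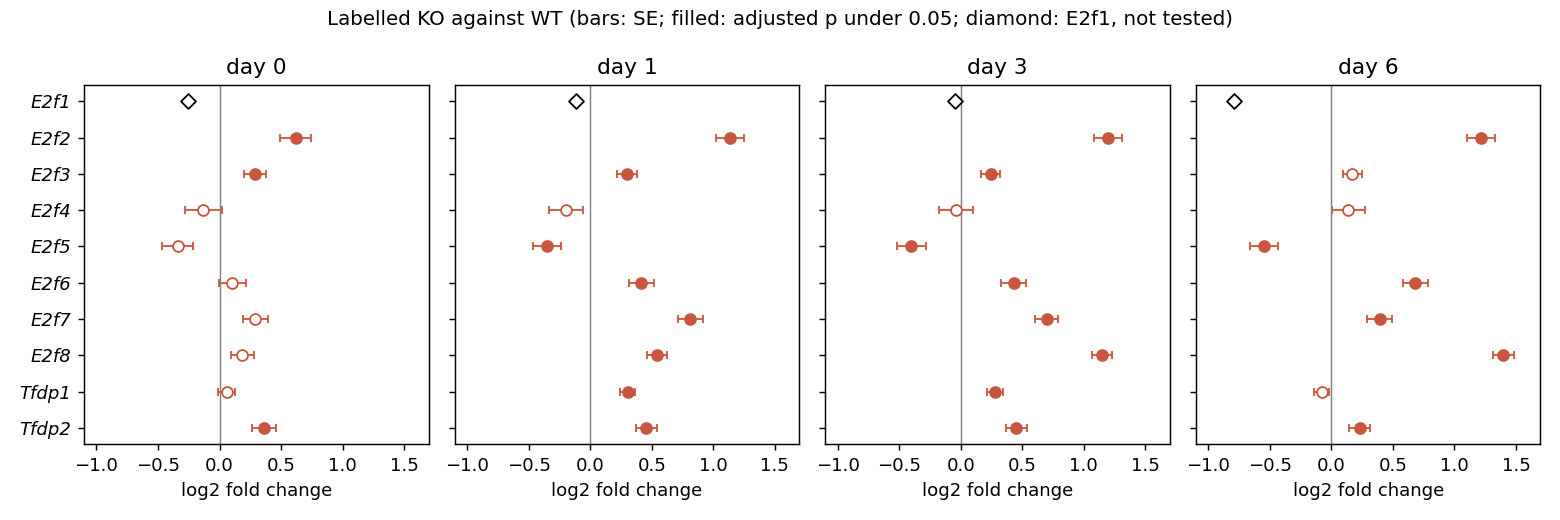
Log2 fold change of each member between KO-labelled libraries and WT (horizontal axis) on days 0, 1, 3 and 6, with SE bars, filled points for an adjusted p under 0.05 and a diamond for E2f1, which was not tested. E2f2 reaches 1.22 and E2f8 1.40 on day 6, while E2f1 lies at -0.79 and E2f5 at -0.55.

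E2f2, the activator closest to E2f1 in role, was higher in the KO-labelled libraries on each day. On day 0 it stood at 21.1, 18.1 and 19.3 TPM in the KO-labelled libraries and at 14.4 and 12.2 TPM in WT. On day 1 the levels were 28.9, 25.1 and 27.2 TPM against 13.4, 9.88 and 14.2 TPM, and on day 3 they were 35.6, 32.0 and 33.6 TPM against 17.2, 16.8 and 13.5 TPM. On day 6 they were 25.7, 25.3 and 27.1 TPM against 12.1, 11.7 and 14 TPM. The groups did not overlap on any day. The log2 fold changes were 0.62 (SE 0.13, adjusted p = 0.00124), 1.14 (SE 0.11, adjusted p = 3.81e-08), 1.2 (SE 0.11, adjusted p = 9.89e-09) and 1.22 (SE 0.11, adjusted p = 6.86e-09) in the edgeR quasi-likelihood fit. These calls held in every alternative run.

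E2f2 also rose with differentiation in the KO-labelled libraries. Its log2 fold change since day 0 there was 0.28, 0.66 and 0.28 on days 1, 3 and 6 (edgeR adjusted p = 0.0377, 2.07e-05 and 0.0285). The day 1 call was lost without replicate 2 or 3 of day 0 (0.23 and 0.28) and without replicate 1 or 3 of day 1 (0.19 and 0.27). The day 6 call was lost without replicate 2 or 3 of day 0 (0.23 and 0.28) and without replicate 3 of day 6 (0.24). In WT it was -0.24 (adjusted p = 0.113), 0.08 (adjusted p = 0.614) and -0.32 (adjusted p = 0.0312), and the day 6 decrease was lost on both TPM scales (-0.08) and without WT replicate 1 of day 0 (-0.26) or WT replicate 1 or 2 of day 6 (-0.28 and -0.26). In the ratio of TPM values, WT libraries held 0.318, 0.438, 0.399 and 0.292 transcripts of E2f2 per transcript of E2f1 on average on days 0, 1, 3 and 6. The KO-labelled libraries held 0.577, 1.06, 0.982 and 1.14. With E2f3 added, the summed activators came to 66.4 ± 6.17 TPM in WT and 59.5 ± 1.77 TPM in the KO-labelled libraries on day 6 (SD, n = 3 each). On day 3 the sums were 67.1 ± 0.49 and 79.9 ± 1.48 TPM.

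**Figure D3:**
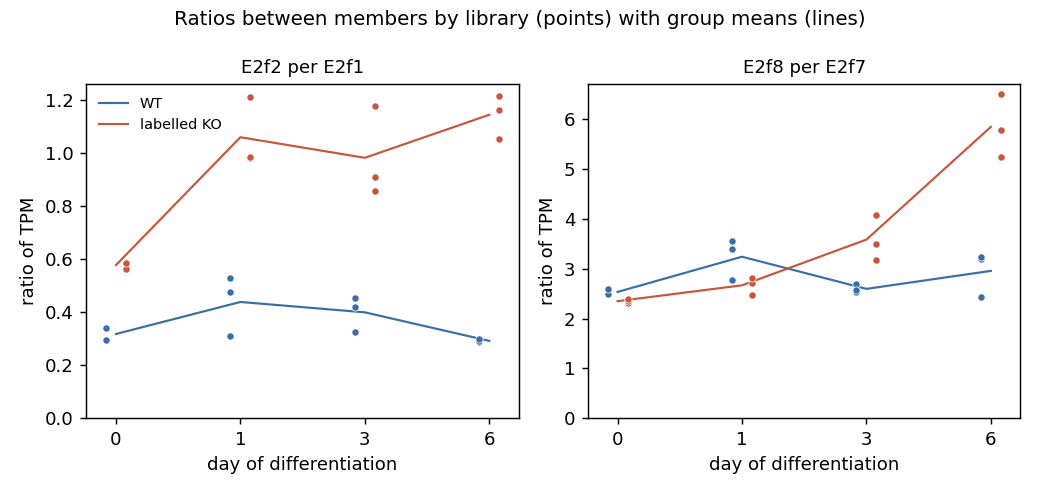
Ratio of TPM values (vertical axes, from 0) of E2f2 to E2f1 and of E2f8 to E2f7 by day of differentiation, with 1 point per library and lines through group means, for WT (blue) and KO-labelled libraries (red). Mean E2f2 per E2f1 on day 6 is 1.14 in the KO-labelled libraries and 0.292 in WT, and mean E2f8 per E2f7 is 5.85 and 2.96.

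E2f3, the third activator, differed little. Its log2 fold change between the genotypes was 0.29, 0.30 and 0.24 on days 0, 1 and 3 (edgeR adjusted p = 0.0232, 0.00393 and 0.0164) and 0.17 on day 6 (adjusted p = 0.0893). On log2(TPM + 1) the values on days 3 and 6 were -0.0012 and -0.0046, and the day 0 and day 1 values did not pass (0.20 and 0.13). The day 0 call was also lost without replicate 3 of the KO-labelled libraries (0.25) and without WT replicate 1 or 2 (0.35 and 0.23), and the day 3 call without replicate 1 of the KO-labelled libraries (0.19). E2f3 fell with differentiation in both genotypes, by 0.73 on the log2 scale in WT and by 0.85 in the KO-labelled libraries by day 6 (adjusted p = 1.51e-07 and 1.57e-09). Counts are per gene, so the known long and short E2f3 isoforms are not told apart.

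E2f4, the most abundant E2f and a repressor of resting cells, had log2 fold changes of -0.13, -0.19, -0.04 and 0.14 between the genotypes on days 0, 1, 3 and 6, none past the threshold (edgeR adjusted p = 0.647, 0.269, 0.846 and 0.437). On day 1, replicate 2 of the KO-labelled libraries stood at 50.4 TPM, against 82.0 and 88.3 TPM in its replicates and 83.2 to 89.8 TPM in WT. Without that library the day 1 value was 0.064, and without replicate 2 of the day 3 KO-labelled libraries the day 3 value was 0.022. By day 6 E2f4 had fallen by 0.59 in WT (adjusted p = 0.00156) and by 0.32 in the KO-labelled libraries (adjusted p = 0.0403), a call lost without any 1 of the 6 libraries concerned, with values from -0.33 to -0.30.

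E2f5, a further pocket protein partner, was the 1 tested member that was lower in the KO-labelled libraries. It stood at 22.3 and 19.8 TPM in WT on day 0 and at 15.1, 16.6 and 16.1 TPM in the KO-labelled libraries. On day 6 the levels were 20.2, 17.0 and 19.8 TPM against 11.9, 11.8 and 12 TPM. The log2 fold changes were -0.34 (adjusted p = 0.0644), -0.35 (adjusted p = 0.0168), -0.40 (adjusted p = 0.00735) and -0.55 (SE 0.12, adjusted p = 0.000541) on days 0, 1, 3 and 6 in the edgeR quasi-likelihood fit. The day 1 call was lost without replicate 1 of the KO-labelled libraries (-0.32) or WT replicate 2 (-0.19), and the day 3 call without replicate 3 of the KO-labelled libraries (-0.31). The day 0 difference passed with library size only (-0.40) and in a fit of only the groups compared (-0.34). E2f5 had 251 to 504 counts per library.

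E2f6, which represses without pocket proteins, was higher in the KO-labelled libraries on days 1, 3 and 6. On day 0 it stood at 23.8 and 24.4 TPM in WT and at 24.2, 25.6 and 24.6 TPM in the KO-labelled libraries, and the groups overlapped. On day 6 the levels were 25.6, 25.5 and 24.5 TPM in WT and 34.7, 38.9 and 38.0 TPM in the KO-labelled libraries, with no overlap. The log2 fold changes between the genotypes were 0.10 (adjusted p = 0.620), 0.42 (adjusted p = 0.00217), 0.43 (adjusted p = 0.00121) and 0.68 (SE 0.10, adjusted p = 5.6e-06) on days 0, 1, 3 and 6 in the edgeR quasi-likelihood fit. E2f6 rose by 0.47 from day 0 to day 6 in the KO-labelled libraries (adjusted p = 0.000178), while the WT change was -0.11 (adjusted p = 0.414) and 0.060 on log2(TPM + 1).

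E2f7 and E2f8, the atypical repressors, both fell once serum was lowered. From day 1 to day 3, E2f7 rose again in both genotypes and E2f8 in the KO-labelled libraries. E2f8 stood at 44.7 and 46.3 TPM in WT on day 0, at 21.6, 18.8 and 21.0 TPM on day 1, at 23.02, 26.8 and 22.3 TPM on day 3 and at 14.6, 14.04 and 16.5 TPM on day 6. In the KO-labelled libraries it stood at 49.1, 47.2 and 52.6 TPM on day 0, at 30.9, 26.9 and 28.1 TPM on day 1, at 50.1, 47.2 and 46.1 TPM on day 3 and at 36.1, 36.9 and 35.6 TPM on day 6. The groups did not overlap on any day, and the gap between them widened on days 3 and 6. The log2 fold changes between the genotypes were 0.19 (adjusted p = 0.186), 0.54 (SE 0.08, adjusted p = 1.71e-05), 1.15 (SE 0.08, adjusted p = 1.56e-10) and 1.40 (SE 0.09, adjusted p = 4.52e-12) in the edgeR quasi-likelihood fit. From day 1 to day 3, E2f8 rose by 0.81 in the KO-labelled libraries (adjusted p = 6.82e-08), with a WT value of 0.20 (adjusted p = 0.0925), and the difference between these 2 steps was not tested.

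E2f7 stood at 18.0 and 17.9 TPM in WT on day 0 and at 6.37, 6.76 and 5.91 TPM on day 1, against 21.2, 20.1 and 22.1 TPM and then 11.4, 10.9 and 9.95 TPM in the KO-labelled libraries. On day 3 it stood at 9.10, 9.95 and 8.70 TPM in WT and at 12.3, 14.8 and 13.2 TPM in the KO-labelled libraries, above every day 1 library of the same genotype. The step from day 1 to day 3 was 0.52 in WT (edgeR adjusted p = 0.000616) and 0.40 in the KO-labelled libraries (adjusted p = 0.00322). The call in the KO-labelled libraries was lost on log2(TPM + 1) and log2(TPM + 0.1) (0.30 and 0.32) and in a fit of only the groups compared (0.36). On day 6 the levels were 4.55, 4.33 and 6.80 TPM in WT and 6.88, 5.67 and 6.14 TPM in the KO-labelled libraries, and the groups overlapped on the TPM scale. Its log2 fold changes were 0.29 (adjusted p = 0.0584), 0.81 (SE 0.10, adjusted p = 7.96e-07), 0.70 (SE 0.10, adjusted p = 3.39e-06) and 0.39 (SE 0.10, adjusted p = 0.00351) on days 0, 1, 3 and 6 in the edgeR quasi-likelihood fit. The day 0 difference passed in DESeq2 (0.30, adjusted p = 0.0293), and the day 6 call was lost on log2(TPM + 1) (0.23, adjusted p = 0.120). Libraries labelled KO held 2.35, 2.67, 3.59 and 5.85 transcripts of E2f8 per transcript of E2f7 on average on days 0, 1, 3 and 6, and WT libraries held 2.54, 3.24, 2.60 and 2.96. The ranges on day 6 were 5.25 to 6.51 and 2.43 to 3.24. In an exact two-sided permutation test over libraries, the E2f8 to E2f7 ratio between the genotypes gave p = 0.1, 0.2, 0.1 and 0.1 on days 0, 1, 3 and 6 (adjusted over these 4 comparisons 0.133, 0.2, 0.133 and 0.133), where 0.1 is the smallest p that these group sizes allow, so none could pass.

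The 2 dimer partners went opposite ways during differentiation. Tfdp1 fell from 168 and 178 TPM to 72.8 to 87.9 TPM by day 6 in WT, and from 165 to 180 TPM to 64.2 to 74.8 TPM in the KO-labelled libraries. On the scale of scaled counts it fell by 1.32 and 1.46 log2 units (SE 0.07 and 0.06, adjusted p = 1.61e-13 and 2.54e-15 in the edgeR quasi-likelihood fit). Between the genotypes Tfdp1 was 0.30 higher on day 1 (adjusted p = 0.000493) and 0.28 higher on day 3 (adjusted p = 0.000953). The day 3 call was lost on log2(TPM + 1) (0.13), where the day 6 value of -0.08 passed at -0.21. Tfdp2 rose by 0.33 in WT (adjusted p = 0.00497) and by 0.21 in the KO-labelled libraries (adjusted p = 0.0350) by day 6. The WT call was lost without WT replicate 2 of day 0 (0.28), and the other without replicate 1 or 2 of day 6 (0.20 and 0.18) or replicate 2 or 3 of day 0 (0.15 and 0.16). Between the genotypes Tfdp2 differed by 0.36, 0.45, 0.45 and 0.23 (adjusted p = 0.0127, 0.000181, 0.000169 and 0.0319). On log2(TPM + 1) the values were 0.10, 0.31 and 0.04 on days 0, 3 and 6, and none of these passed. The day 0 call was also lost without replicate 1 of the KO-labelled libraries (0.26) or WT replicate 2 (0.30). The day 6 call was also lost without replicate 1 or 2 of the KO-labelled libraries (0.23 and 0.21) or WT replicate 1 or 2 (0.18 and 0.17).

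Counted over the family, more members fell than rose with differentiation. E2f1 is counted in WT only, since it was not tested in the KO-labelled libraries. Without it, 6, 5 and 7 of 9 genes fell in WT to days 1, 3 and 6, and 1 rose to each day. In WT, 7 of the 10 genes fell and 1, Tfdp2, rose from day 0 to day 1, where 54.7% of all tested genes changed. To day 3, 5 fell and 1 rose, a share of 60% that lies near the 58.2% of all genes, and to day 6, 7 fell and 1 rose (63.6% of all genes). In the KO-labelled libraries, 7 of the other 9 genes fell and 2 rose to day 1 (52.3% of all genes). To day 3, 4 fell and 2 rose (57.6% of all genes), and to day 6, 6 fell and 3 rose, E2f2, E2f6 and Tfdp2 (70% of all genes). The median log2 change by day 6 was -0.46 for the 10 genes in WT and -0.54 for the 9 genes in the KO-labelled libraries, against 0.047 for all genes in either genotype. On the log2(TPM + 0.1) scale the median of all genes shifted to 0.20 and 0.15. The WT counts of 8 to days 1 and 6 were 5 on either TPM scale. There, 51.5 and 52.2% of all genes changed to day 1, and 61.9 and 62.1% to day 6. In WT the day 3 count was 4 without either WT library of day 0 or without replicate 3 of day 3. The day 1 count of 9 in KO-labelled libraries was 5 without replicate 2 of day 0.

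**Figure D4:**
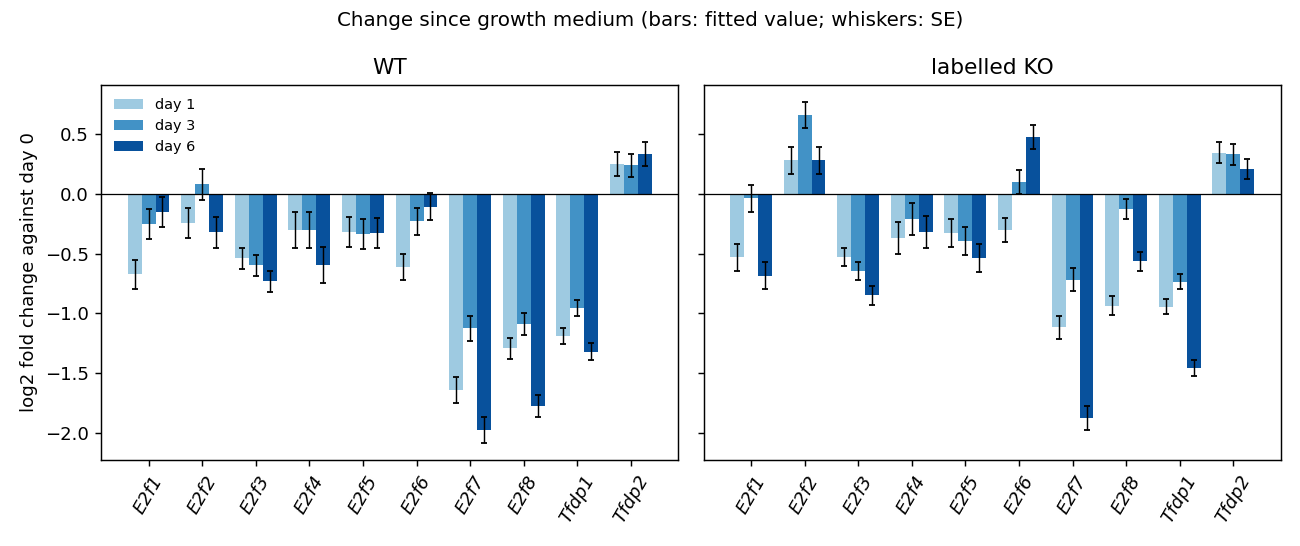
Log2 fold change of each member since growth medium (vertical axis, bars from 0, whiskers SE) on days 1, 3 and 6 in WT and in KO-labelled libraries. E2f7, E2f8 and Tfdp1 have the deepest decreases in WT, and E2f2 and E2f6 have positive values on day 6 in the KO-labelled libraries.

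The steps between neighbouring days were compared after the data had been seen. From day 1 to day 3, 5 of the 10 genes rose in WT (4 of 9 without E2f1), where 19.7% of all genes changed. In the KO-labelled libraries, 5 of the 9 genes other than E2f1 rose (26.7% of all genes). From day 3 to day 6, 4 fell in WT (9.79% of all genes), namely E2f2, E2f7, E2f8 and Tfdp1. In the KO-labelled libraries, 5 of the 9 fell and 1, E2f6, rose (41.3% of all genes). The count of 5 that rose in the KO-labelled libraries was 2 on either TPM scale (22.5 and 22.8% of all genes). It was 1 with only the groups compared (11.6% of all genes). The WT count of 5 was 3 without WT replicate 2 of day 1, replicate 1 of day 3 or replicate 2 of day 3.

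An interaction test compared the change since day 0 between the genotypes for the 9 members other than E2f1. On day 1, 1 gene passed, E2f7 at 0.52 (SE 0.14, adjusted p = 0.0418), where 3.95% of all genes passed. That call was lost in 8 of the 11 fits without 1 library, with values between 0.44 and 0.58, and with the replicate number as a block (0.53, adjusted p = 0.0593). Without replicate 2 of the day 1 KO-labelled libraries, the one that stood apart, 3 genes passed. On day 3, 2 genes passed, E2f2 at 0.58 (adjusted p = 0.0260) and E2f8 at 0.96 (SE 0.12, adjusted p = 9.76e-06), where 10.7% of all genes passed. On day 6, 3 passed, E2f2 at 0.60 (adjusted p = 0.0180), E2f6 at 0.58 (adjusted p = 0.00963) and E2f8 at 1.21 (SE 0.12, adjusted p = 2.39e-07), where 13% of all genes passed. These values come from the edgeR quasi-likelihood fit, and all are positive. For E2f7 on day 1 and E2f8 on day 6 this is a smaller decrease in the KO-labelled libraries. For E2f8 on day 3 it is a decrease in WT beside a value of -0.13 in the KO-labelled libraries that did not pass (adjusted p = 0.186). Mean E2f7 went from 60.9 to 19.5 CPM in WT and from 74.5 to 34.4 CPM in the KO-labelled libraries by day 1. Mean E2f8 went from 101 to 47.5 and 29.5 CPM in WT on days 0, 3 and 6 and from 115 to 105 and 77.7 CPM in the KO-labelled libraries. For E2f2 and E2f6 it is an increase in the KO-labelled libraries, beside WT changes of 0.08 and -0.32 for E2f2 on days 3 and 6 and -0.11 for E2f6 on day 6. The E2f8 calls held in every alternative run. The E2f2 calls were lost on both TPM scales and without replicate 2 of the day 0 KO-labelled libraries (0.53 and 0.55 on days 3 and 6) or WT replicate 1 of day 0 (0.52 and 0.55). The day 3 call of E2f2 was also lost without WT replicate 2 of day 0 (0.65), replicate 1 or 3 of the day 3 KO-labelled libraries (0.54 and 0.56) or WT replicate 3 of day 3 (0.48). The E2f6 call was lost without WT replicate 2 of day 0 (0.52). The 2 WT libraries of day 0 enter each of these tests.

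Genes that E2f factors are known to act on were set beside the members. The counts of each list are read against the 17.5, 42.2, 43.2 and 42.9% of all tested genes that differed between the genotypes, in either direction, on days 0, 1, 3 and 6. In a list of 25 E2f target genes of DNA synthesis, 1, 24, 24 and 1 were higher in the KO-labelled libraries on days 0, 1, 3 and 6, and 1, Rrm2, was lower on day 6. The list thus lay above the share of all genes on days 1 and 3 and below it on days 0 and 6. The median log2 fold changes were 0.06, 0.78, 0.72 and -0.05. Cdc6, which loads the replicative helicase, was 1.11 higher on day 1 and 0.92 on day 3 (adjusted p = 2.34e-09 and 2.47e-08), and Mcm5, a subunit of that helicase, was 1.05 and 0.97 higher. Rrm2, the small subunit of ribonucleotide reductase, stood at -0.63 on day 6 (SE 0.10, adjusted p = 1.3e-05). Over time the list fell in both genotypes, with 25 of 25 genes lower on day 6 than on day 0, where 63.6% of all genes changed in WT and 70% in the KO-labelled libraries, and medians of -2.01 in WT and -2.18 in the KO-labelled libraries.

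The list of 16 mitosis genes stayed higher in the KO-labelled libraries to the end. All 16 were higher on days 1, 3 and 6 and 1, Cdk1, on day 0, with medians of 0.86, 1.08, 0.57 and 0.08. Plk1, a mitotic kinase, was 1.39 higher on day 3 and 0.81 on day 6 (edgeR adjusted p = 7.05e-09 and 2.27e-05), and Ccnb1, the B-type cyclin of mitotic entry, was 1.28 and 0.70 higher. All 16 were lower on day 6 than on day 0 in both genotypes (63.6 and 70% of all genes changed in WT and KO-labelled libraries), with medians of -2.06 in WT and -1.58 in the KO-labelled libraries. The family was chosen because E2f1 went against cell cycle genes such as these, so its log2 fold changes of -0.26, -0.11, -0.04 and -0.79 beside the lists describe that choice and are no separate result. The direction of such genes in the KO-labelled libraries was part of that choice as well. The genotype counts and p-values of both lists thus describe it and are no independent support.

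**Figure D5:**
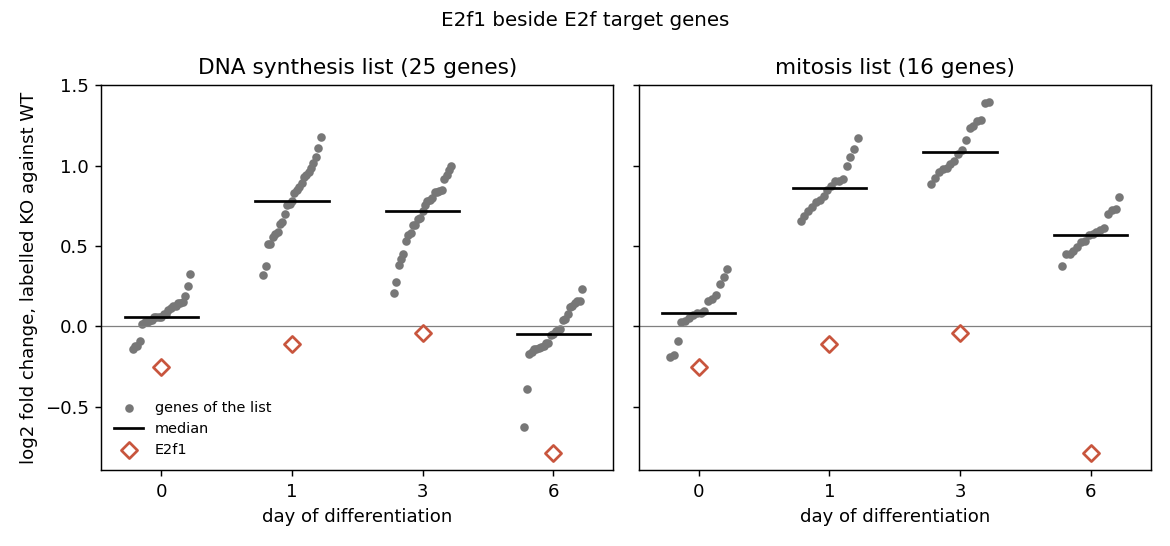
Log2 fold change between KO-labelled libraries and WT (vertical axis) by day of differentiation for each gene of the DNA synthesis list (25 genes) and the mitosis list (16 genes), with the list median as a bar and E2f1 as a diamond. On days 1 and 3 the list medians lie between 0.72 and 1.08, and E2f1, the gene the family was chosen on, lies at -0.11 and -0.04.

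Subunits and partners of the MuvB complex, which joins E2f4 or E2f5 in the DREAM repressor of resting cells and B-Myb and Foxm1 in cycling cells, were counted in the same way. Of 7 genes, 0, 5, 6 and 3 were higher in the KO-labelled libraries on days 0, 1, 3 and 6. On day 0 the edgeR and DESeq2 counts were both 0, as was the edgeR count at an unadjusted p under 0.05. The 3 of 7 on day 6 match the share of all genes (42.9%). Lin9 and Lin54, 2 MuvB subunits, were 0.99 and 0.85 higher on day 1 (adjusted p = 2.05e-06 and 1.35e-06). Foxm1, an activator of mitosis genes, was 1.06 higher on day 3 (adjusted p = 7.82e-08). Mybl2, which encodes B-Myb, fell by 3.08 in WT and by 3.03 in the KO-labelled libraries by day 6.

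Pocket proteins and the cyclins, kinases and inhibitors that govern them went in both directions. Of 19 genes, 17 were tested, and Cdkn2a and Cdkn2b had at most 1 count in any library. On days 0, 1, 3 and 6, 4, 9, 9 and 6 were higher in the KO-labelled libraries and 2, 3, 3 and 3 were lower. The day 0 total of 6 was 3 on either TPM scale and 2 to 6 with a library left out. The day 1 total was also lower with only the groups compared, where 25.7% of all genes differed. The E cyclins were the upper end on day 1, with Ccne2 at 1.29 and Ccne1 at 1.03 (edgeR adjusted p = 1.96e-07 and 1.9e-07). Cdk6, a kinase of Rb, was 0.72 higher on day 0 and 0.98 on day 1. On day 6, Cdkn1a, which encodes the kinase inhibitor p21, reached 1145 ± 161 CPM in the KO-labelled libraries against 559.6 ± 68.0 CPM in WT (SD, n = 3 each; log2 fold change 1.03, adjusted p = 2.65e-07), and Rb1 was 0.77 higher (adjusted p = 1.91e-05). The D cyclins, which open the Rb pathway, differed in direction. Ccnd1 was higher on days 0 and 1 (0.41 and 0.26, edgeR adjusted p = 0.00892 and 0.0333) and lower on days 3 and 6 (-0.26 and -0.61, adjusted p = 0.0318 and 1.7e-05). Ccnd2 was lower on days 1, 3 and 6 (-0.42, -0.93 and -0.59). Ccnd3, named after its values were seen, was higher on days 3 and 6 (0.37 and 0.42, adjusted p = 0.00545 and 0.00211), at 356 to 388 CPM against 266 to 296 CPM on day 6.

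The apoptosis genes known as E2f1 targets held both directions. Of 6 tested genes, 1, 4, 4 and 1 were higher in the KO-labelled libraries on days 0, 1, 3 and 6. Pmaip1, which encodes Noxa, was higher on each day, by 0.83, 0.82, 0.62 and 0.94 (edgeR adjusted p = 0.0124, 0.00153, 0.0123 and 0.000344). Bbc3, which encodes Puma, was lower on day 1 (-0.63, adjusted p = 0.00267). Trp73 did not pass the filter on low counts. Among 8 partners of E2f6 in its polycomb-type complex, 1, 4, 2 and 2 were higher on days 0, 1, 3 and 6, and 1, Max, was lower on day 6. The day 1 count lies near the share of all genes (42.2%) and those of the other days lie below it (17.5, 43.2 and 42.9%). Wdr5 was higher on each day, by 0.41, 0.52, 0.54 and 0.46. The 6 germline genes known as E2f6 targets had at most 4 counts in any library, so a difference in them was not detectable at this depth. Since these are bulk samples, a changed share of cells in cycle and changed RNA per cell cannot be told apart for the members and the cell cycle lists.

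Over the 8 group means of log2 CPM, Pearson's r of E2f1 was -0.39 with E2f2 and 0.27 with E2f3, and its highest values were with E2f5 (0.73) and Tfdp1 (0.58). E2f7, E2f3 and Tfdp1 formed the tightest trio, with r of 0.93 for E2f3 with E2f7 and with Tfdp1 and 0.96 for E2f7 with Tfdp1, while E2f5 and Tfdp2 ran against each other (-0.93). Among 10665 genes with a group mean of at least 5 CPM, those most like E2f1 were Sap18 (0.97), Taf13 (0.96), Ganab (0.95), Tor1a (0.95) and Calr (0.93). E2f7 was most like Rad54l, Pole and Gen1 (0.99 to 0.996), which work in DNA replication and repair, E2f2 like Brd3 (0.99), E2f6 like Fgfr3 (0.99), E2f8 like Pigw (0.996) and Tfdp1 like Nup85 (0.998). The points share 8 groups, their library sizes and the WT and KO labels, and the values describe these libraries only.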

How the data were processed

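Poly(A)-selected RNA of 23 libraries was measured. The authors deposited estimated counts per gene symbol (whole numbers) and TPM, and the submitters' processing notes list mm10, Bowtie2 and RSEM. Versions, annotation and strand are not given in the sources used here. The estimated counts were rounded, which changed 0 values, and tested with edgeR 4.0.16 in R 4.3.3 (TMM, filterByExpr with a minimum count of 10 and total of 15, 1 group-means model over all libraries, quasi-likelihood F-test, Benjamini-Hochberg over 14187 genes, threshold 0.05). Levels compared between genes are the authors' deposited TPM. The members and lists were chosen with earlier results of these data known. The text names the members, in each comparison up to 4 called genes per list with the largest absolute log2 fold change and a group mean of at least 5 CPM, list genes that a count of 5 or fewer refers to, and the genes most like a member over the 8 group means. Ccnd3, and values of a named gene in further comparisons, were added after they were seen. Alternatives were DESeq2 1.42.0, RLE scaling, library size only, a mean count minimum of 50, the fit without a filter, limma 3.58.1 on log2(TPM + 1) and log2(TPM + 0.1), only the groups compared, the replicate number as a block, and each library left out. Total counts of 22197606 to 23684077 per library limit precision by counting error only slightly for the members (251 to 6269 counts per library). The fit was tested on simulated data for day 1 between the genotypes, where it recovered 64% of 1.5-fold and 80% of 2-fold changes. Of its calls, 3.36% were false. Changes of the members that did not pass may therefore have been missed. The values of 1 gene of the apoptosis list are not reported here.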

Additional observations from a re-analysis of the deposited data

Results flagged for a closer look

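The change since growth medium was compared between the genotypes in an edgeR interaction test adjusted by Benjamini-Hochberg. Of the 9 members tested, 1, 2 and 3 passed on days 1, 3 and 6, beside 3.95, 10.7 and 13% of all genes. On day 1 the difference for E2f7 was 0.52 log2 units (adjusted p = 0.0418), a call lost in 8 of 11 fits without 1 library, with the replicate number as a block (0.53), with RLE scaling (0.49), on both TPM scales (0.45 and 0.52), under a mean count minimum of 50 (0.48) and with only the groups compared (0.47). On day 3 it was 0.58 for E2f2 (adjusted p = 0.0260) and 0.96 for E2f8 (adjusted p = 9.76e-06). On day 6 it was 0.60 for E2f2 (adjusted p = 0.0180), 0.58 for E2f6 (adjusted p = 0.00963) and 1.21 for E2f8 (adjusted p = 2.39e-07). The E2f2 calls were lost on both TPM scales (0.53 and 0.54 on day 3, 0.48 and 0.50 on day 6) and in some fits without 1 library, and the E2f6 call without WT replicate 2 of day 0 (0.52). Each value is positive, which for E2f7 on day 1 and E2f8 on day 6 is a smaller decrease in the KO-labelled libraries, for E2f8 on day 3 a decrease that passed the test in WT alone, and for E2f2 and E2f6 an increase there. Each rests on the 2 WT libraries of day 0. Runx1 mRNA was higher, not lower, in the KO-labelled libraries, and its level cannot check the genotype labels.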

How the results depend on the processing

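Counts of members past the threshold moved by more than 1.5 times in these settings. On day 0, 3 genes differed between the genotypes, against 1 on either TPM scale and 5 with only the groups compared. The share of all genes was 17.5%, against 14.6 and 16.2% on the TPM scales and 25.1% with only the groups compared. On day 3, 8 became 5 on either TPM scale, where the share of all genes went from 43.2 to 40.8 and 40.5%. In WT from day 0 to days 1 and 6, 8 became 5 on either TPM scale. The share of all genes there went from 54.7 to 51.5 and 52.2% on day 1 and from 63.6 to 61.9 and 62.1% on day 6. From day 1 to day 3 in KO-labelled libraries, 5 became 2 on either TPM scale and 1 with only the groups compared. The share of all genes for that step was 26.7%, against 22.5 and 22.8% on the TPM scales and 11.6% with only the groups compared. In the interaction, the 1 gene of day 1 became 0 with RLE scaling, a mean count of at least 50, either TPM scale and only the groups compared, and the 2 genes of day 3 became 1 on either TPM scale. Of all genes, 3.95% passed on day 1 in the main fit and 1.61 to 4.87% in these settings. On day 3 the shares were 10.7% in the main fit and 11.2 and 10.1% on the TPM scales. With 1 library left out, the counts ranged from 1 to 3 on day 0 between the genotypes, from 5 to 8 for day 1 against day 0 in KO-labelled libraries, from 0 to 3 and 1 to 2 in the interaction on days 1 and 3, and from 3 to 5 for day 3 against day 1 in WT.

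Some signs turned. E2f3 on days 3 and 6 between the genotypes was -0.0012 and -0.0046 on log2(TPM + 1) and -0.0015 and -0.0045 on log2(TPM + 0.1). Tfdp1 on day 0 was -0.00089 with library size only. E2f1 from day 0 to day 3 in KO-labelled libraries was 0.028 with library size only, 0.037 and 0.038 on the 2 TPM scales and from -0.10 to 0.058 with a library left out. E2f1 and E2f6 from day 0 to day 6 in WT were 0.036 and 0.060 on log2(TPM + 1) and 0.037 and 0.062 on log2(TPM + 0.1). E2f4 between the genotypes ranged from -0.34 to 0.064 on day 1 and from -0.10 to 0.022 on day 3 with a library left out. The cause was not tested.

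List counts moved mainly on day 0. The DNA synthesis list had 1 gene past the threshold, against 0 with library size only or on either TPM scale and 2 with only the groups compared (0 to 1 with a library left out). On day 6 its 2 became 4 with library size only, 5 on either TPM scale and 1 with only the groups compared. The mitosis list of day 0 went from 1 to 6 with only the groups compared (0 to 1 with a library left out). The Rb pathway list of day 0 went from 6 to 3 on either TPM scale (2 to 6 with a library left out), and that of day 1 from 12 to 7 with only the groups compared.

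The replicate numbers of the labels do not pair the libraries: deviations of same-numbered libraries correlated at -0.24 to 0.12 over 38 pairs. With the number as a block, the member counts between the genotypes were 3, 8, 8 and 6, and the day 1 interaction count was 0. In TPM the median of all genes shifts by over 0.1, between the genotypes from 0.040 to -0.11 on day 3 and from 0.0037 to -0.12 on day 6 (log2(TPM + 0.1)), and member changes are read beside it.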
